A study of Homo sapiens with 13 samples.

Results

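The comparison set 2 ways of taking away the same enzyme side by side, knockdown of its messenger RNA and inhibition of its catalytic site. Its members were 5 of the 13 2-colour arrays of the series, chosen by treatment and dye: G9a siRNA replicates 1 and 2 and UNC0638 replicates 3, 4 and 5, all with treated RNA in Cy5 and control RNA in Cy3, and none with a swapped partner. All RNA came from HEK293T, an established line of human embryonic kidney origin. G9a siRNA was transfected and compared with control siRNA at 72 h, whereas UNC0638 was given at 1 µM and compared with DMSO at 48 h, so that time, transfection and solvent differ between the treatments and cannot be told apart from them. The treatments have different controls and share no control RNA by their labels. Every value below is a log2 ratio of treated over its own control on 1 array, and a difference is the G9a siRNA mean minus the UNC0638 mean. The labels call the replicates biological without naming separate cultures, so the p-values measure the spread between these samples.

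G9a, encoded by EHMT2, pairs with its relative GLP, encoded by EHMT1, and together they add 1 or 2 methyl groups to histone H3 at lysine 9, a mark found at repressed genes in euchromatin. UNC0638 occupies the substrate groove of both enzymes and leaves the proteins in place, and an siRNA against G9a removes the transcript and in time the protein, with whatever it scaffolds. WIZ, a zinc finger protein, binds the pair on chromatin.

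The probes that report the targeted enzyme and its partner are shown because the check of the labels rests on the first, and because probes of the second disagreed. The EHMT2 probe A_23_P214638 lies at chr6:31848474-31848533 on the minus strand and the EHMT1 probe A_23_P20894 at chr9:140712526-140712585 on the plus strand (build 37.1, from the files), with 55% and 45% G and C, which are in capitals.
EHMT2: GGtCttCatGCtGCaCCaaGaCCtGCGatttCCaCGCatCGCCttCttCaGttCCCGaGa
EHMT1: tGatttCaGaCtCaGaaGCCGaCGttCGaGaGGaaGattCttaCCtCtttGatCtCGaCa

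EHMT2 RNA lay at -1.67 and -1.65 in the G9a siRNA replicates, which left 31.4% and 31.8% of the control level, and at -0.36, 0.02 and -0.48 in UNC0638 replicates 3, 4 and 5. The groups did not overlap, and UNC0638 replicate 3 was not low in EHMT2. The percentages take the unswapped ratios as they stand. For this probe the dye effect estimated on the swapped arrays of the series was -0.29. With the trend on probe GC content removed, the G9a siRNA mean was -1.23, so the level left is not known to that precision. The mean fell under G9a siRNA (-1.66, adjusted p = 0.0189, limma against 0), and the difference from UNC0638 was -1.39 ± 0.17 (SE), with an adjusted p of 0.23 on the 5 arrays and 0.026 without UNC0638 replicate 3. EHMT1 was read by 5 probes that did not give 1 answer. The brightest, A_23_P217120, stood at 0.26 and 0.26 with G9a siRNA and at 0.57, 0.37 and 0.26 with UNC0638 (difference -0.14, adjusted p = 0.66). The EHMT1 probe printed above stood at -0.40 and -0.87 with G9a siRNA and at 0.45, 0.50 and -0.63 with UNC0638, where replicate 5 opposed the other two. WIZ stood at 0.12 and 0.05 with G9a siRNA and at 0.14, 0.06 and -0.74 with UNC0638 (difference 0.26, adjusted p = 0.69).

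The 3 inhibitor arrays were unlike each other before any test, and 1 of them resembled the knockdown. Over 28555 tested features, UNC0638 replicate 3 correlated with G9a siRNA replicates 1 and 2 at Pearson's r of 0.876 and 0.844, close to the 0.922 between the G9a siRNA replicates, and with UNC0638 replicates 4 and 5 at 0.664 and 0.136. Replicates 4 and 5 correlated with each other at only 0.239. Replicate 4 correlated with the G9a siRNA arrays at 0.501 and 0.5, and replicate 5 at 0.18 and 0.196. These are correlations across features, which share probes and array, and features are not replicates. The rank correlations of replicate 3 with the G9a siRNA arrays were 0.731 and 0.69. The SD of the log2 ratios was 0.507 on UNC0638 replicate 3, 0.271 and 0.295 on replicates 4 and 5, and 0.489 and 0.617 on the G9a siRNA arrays.

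**Figure D1:**
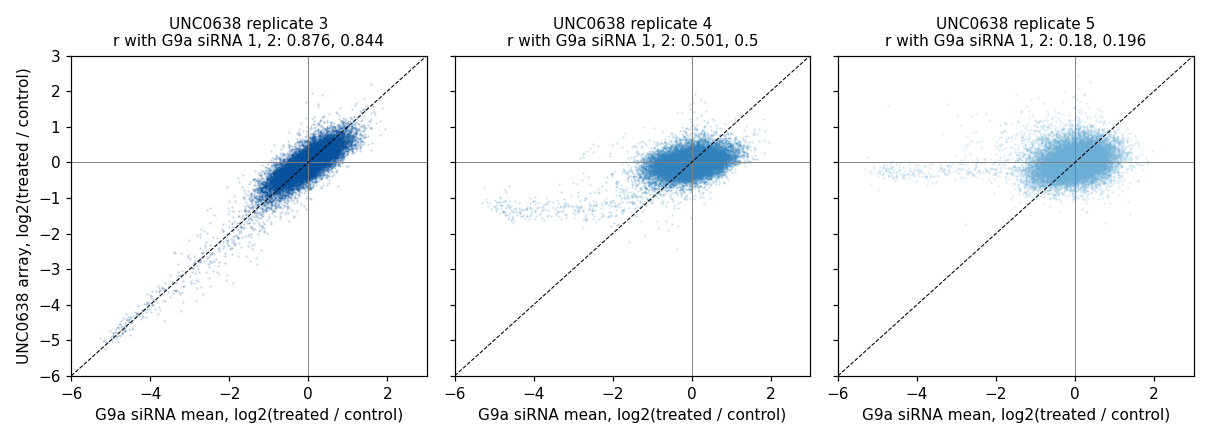
Log2 treated over control of each tested feature on 1 UNC0638 array (vertical axis) against the mean of the G9a siRNA arrays (horizontal axis), 1 panel for each of UNC0638 replicates 3, 4 and 5, with the dashed line marking equal values. Replicate 3 follows the line (r = 0.876 and 0.844 with the 2 G9a siRNA arrays), replicates 4 and 5 do not, and a tail of features far below 0 on the G9a siRNA arrays runs flat in replicates 4 and 5.

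A group of features with extreme values carried part of this likeness. On UNC0638 replicate 3 and both G9a siRNA arrays, 222 features lay under -2, with medians of -3.72, -3.52 and -4.08, and the same features had a median of -1.27 in UNC0638 replicate 4, -0.24 in replicate 5 and 0.06 and -0.15 in replicates 1 and 2. The 44 of them with a probe sequence had a median of 68.3% G and C, against 43.3% over all features with one. The bright corner spots, positive controls of the array design that stand for no gene, moved in the same way: the median of the 14 spots, relative to each array's median spot, was -3.28 on UNC0638 replicate 3, -0.93 on replicate 4, -0.02 on replicate 5 and -3.18 and -3.27 on the G9a siRNA arrays. The 10 E1A spike-in probes did not follow that order, with medians of -0.17, 0.02 and 0.86 on UNC0638 replicates 3 to 5 and -0.16 and 0.48 on the G9a siRNA arrays. With the 222 features left out, replicate 3 still correlated with the G9a siRNA arrays at 0.793 and 0.76, replicate 4 at 0.367 and 0.371 and replicate 5 at 0.185 and 0.199. The part of the control spots in the results below was not tested.

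Brightness moved with treatment in the treated channel. The median spot in Cy5 was 149 and 120 on the G9a siRNA arrays and 187, 224 and 188 on UNC0638 replicates 3, 4 and 5 (background 45 to 49), whereas in Cy3, the control channel, it was 146 to 178 on all 5 (background 29 to 30). Signal well above background came from 49.99% and 47.83% of probes in G9a siRNA RNA and from 52.73%, 55.44% and 53.2% in UNC0638 RNA, and from 57.54% to 60.63% in control RNA. The part of this dimmer channel in the differences between treatments was not tested. All 7 HEK293T markers checked (VIM, KRT8, KRT18, CDH2, PAX2, LIN28B and NES) were above background in control RNA on 5 of 5 arrays, and HBB, PECAM1, VWF, ALB and TTR on 0 of 5. Among further markers of blood, endothelium and liver, PTPRC, CD14, SPI1, CDH5 and APOA1 were above background on 5 arrays and CD3E on 3.

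On the 5 arrays no feature passed the test of G9a siRNA minus UNC0638: 0 of 28555 features (0%) were called at an adjusted p under 0.05 (limma with Benjamini-Hochberg adjustment), with a smallest adjusted p of 0.177. At an unadjusted p under 0.05 there were 2203 features higher with G9a siRNA (7.71%) and 2403 lower (8.42%), and the 2 G9a siRNA values lay above all 3 UNC0638 values for 4838 features (16.9%) and below them for 5137 (18%). Without UNC0638 replicate 3 the same test called 1487 features (5.21%), of which 616 were higher with G9a siRNA (2.16%) and 871 lower (3.05%). Of the 222 features of the extreme tail, 191 were among these calls. The count moved with the arrays that supply the spread. With either G9a siRNA array also left out, the spread came from UNC0638 replicates 4 and 5 alone, the lone knockdown array was assumed to vary like them, and 0 features were called. With UNC0638 replicate 4 or 5 also left out, the spread came from the G9a siRNA pair, the lone inhibitor array was assumed to vary like it, and 4892 or 4010 were called. Replicate 3 lay nearer to the G9a siRNA mean than to the mean of replicates 4 and 5 for 69.6% of the called features, against 54.8% of all features. For 1163 of the 1487 (78.2%) the G9a siRNA values still lay beyond all 3 inhibitor values, in the direction of the call. Over all features these shares were the 16.9% above and 18% below given above, but the called features were chosen on 4 of these 5 arrays. In simulated data of this layout the 5-array test recovered 84.5% of differences of 2 on the log2 scale and 0% of differences of 1, and the 4-array test 68.5% and 0%. The simulation drew independent noise and changed 200 features, whereas the real arrays were correlated across features. The 1487 real calls had a median absolute difference of 0.96, so the simulated rates do not give the sensitivity on these arrays.

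Of the 12 genes lowest with G9a siRNA relative to UNC0638, 7 lay above 0 on all 3 inhibitor arrays and did not pass the test with the knockdown. Over all features 21.1% passed that test. MAT1A, which makes the methyl donor S-adenosylmethionine and is typical of liver, lay at 1.69, 1.65 and 1.85 with UNC0638 and at 0.03 and -0.12 with G9a siRNA. Its inhibitor mean rose (1.73 ± 0.10 SD, n = 3 arrays, adjusted p = 0.00997 by limma), and the difference was -1.77 ± 0.13 (SE), with an adjusted p of 0.177 on the 5 arrays and 0.00541 without replicate 3. ALOX15B, a lipoxygenase of arachidonic acid, lay at 1.96, 1.93 and 2.46 with UNC0638 and at 0.14 and 0.03 with G9a siRNA. GRP, the gastrin-releasing peptide, lay at 1.57, 1.79 and 1.90 with UNC0638 and at 0.24 and 0.23 with G9a siRNA. In all 3 genes replicate 3 sat with the other inhibitor arrays and far from the knockdown. The rule that chose these genes asked for knockdown values beyond all 3 inhibitor values. The side on which replicate 3 lay was therefore fixed in advance. MAT1A and ALOX15B were not well above background in G9a siRNA RNA on either array, and GRP on 1 of 2, so that their knockdown ratios were read near background.

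The same split held for FGG, the fibrinogen gamma chain, at 1.28, 1.25 and 1.48 with UNC0638 and 0.09 and 0.20 with G9a siRNA. FGG was not well above background in DMSO RNA on any of the 3 arrays, and was at least 2.41-fold higher with UNC0638. IRAG1, a substrate of cyclic GMP-dependent kinase at the inositol trisphosphate receptor, lay at 1.88, 1.69 and 1.56 against 0.53 and 0.16, and was at least 3.25-fold higher with UNC0638 than in DMSO RNA, where it too was not well above background. Both genes were not well above background in either RNA of the G9a siRNA arrays. These lower limits come from single-channel values and are open to dye bias. CAMK2N2, an inhibitor of calmodulin-dependent kinase II, lay at 0.87, 0.97 and 1.18 against -0.01 and -0.26, and LOC254896, a locus with no coding symbol, at 0.80, 0.99 and 1.06 against -0.23 and -0.27. The means of ALOX15B, CAMK2N2 and LOC254896 with UNC0638 rose (adjusted p from 0.0143 to 0.034, limma against 0). On these 5 arrays FGG and IRAG1 were above background only in the RNA where they were high, so their tests are not given as support. GRP was above background in DMSO RNA on 1 of 3 arrays, and on more than 1 array only in UNC0638 RNA. Its tests are not given as support either. SMTN, the smooth muscle protein smoothelin, moved to opposite sides of 0, at 0.43, 0.44 and 0.31 with UNC0638 and at -0.56 and -0.73 with G9a siRNA.

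The remaining 4 of the 12 lowest genes fell with the knockdown and did not pass the test with the inhibitor, which only 0.399% of all features passed. Besides EHMT2 they were NAPA, the alpha-SNAP protein that takes SNARE complexes apart, SHKBP1 and the exoribonuclease gene ERI3. NAPA lay at -1.17 and -1.19 with G9a siRNA and at -0.08, 0.15 and -0.09 with UNC0638. SHKBP1 lay at -0.82 and -0.80 against 0.16, 0.07 and 0.04, and ERI3 at -0.84 and -1.03 against 0.12, 0.04 and -0.02. NAPA, SHKBP1 and ERI3 fell with G9a siRNA (adjusted p = 0.0189 for each, limma against 0). These tests take the unswapped ratios as they stand. For these probes, in that order, the dye effect estimated on the swapped arrays was -0.591, -0.21 and -0.609. A dye effect common to the 5 arrays drops out of the difference, but not of the mean of either treatment. With the trend on GC content removed, the G9a siRNA means went from -1.178, -0.809 and -0.93 to -0.743, -0.374 and -0.999. The part of the dye in these falls was not tested. None of the 12 was called on the 5 arrays (adjusted p = 0.177 for MAT1A and 0.23 for the other 11), and all 12 were called lower without UNC0638 replicate 3 (adjusted p from 0.00541 to 0.0328). The 12 were ranked by p on the 5 arrays, and the test without replicate 3 reuses the other arrays, so these calls are no separate support. Those of GRP, FGG and IRAG1 are also limited by background, as given above.

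**Figure D2:**
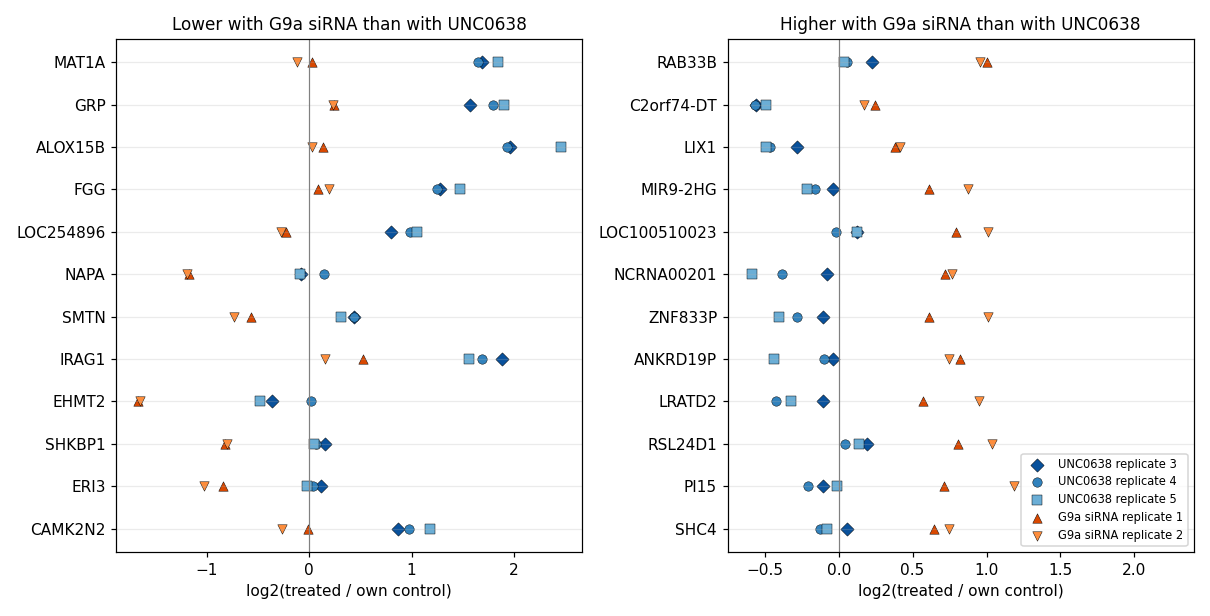
Log2 treated over control (horizontal axis) on each of the 5 arrays for the 12 genes lowest and the 12 highest with G9a siRNA relative to UNC0638 by p-value; blue symbols are UNC0638 replicates 3 to 5 and orange triangles G9a siRNA replicates 1 and 2. MAT1A, GRP, ALOX15B and FGG lie above 1 on the inhibitor arrays and near 0 on the knockdown arrays, and EHMT2 lies near -1.7 on the knockdown arrays alone.

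Among the 12 genes highest with G9a siRNA, 11 passed the test as higher with the knockdown against 0, and 0 of the 12 passed it with UNC0638 on these arrays (limma). Over all features 9.22% passed as higher with G9a siRNA and only 0.399% passed in either direction with UNC0638. The 12 were also chosen for lying higher with the knockdown, so these counts are no separate result. The 11 include RAB33B, LIX1 and SHC4, whose tests are limited by background, as given below. The tests against 0 take the unswapped ratios as they stand. Over the 12 probes the dye effect estimated on the swapped arrays ranged from -0.037 (C2orf74-DT) to 0.383 (LRATD2), with 0.338 for ZNF833P and 0.31 for PI15. The part of the dye in these rises was not tested. RAB33B, a small GTPase of the Golgi, lay at 1.00 and 0.96 with G9a siRNA and at 0.23, 0.06 and 0.04 with UNC0638. It was measured as 1.97-fold higher than in control siRNA RNA, where it was not well above background. On these arrays RAB33B was above background on more than 1 array only in G9a siRNA RNA, so its test is no support either. RSL24D1, a factor of large ribosomal subunit assembly, lay at 0.81 and 1.04 against 0.19, 0.04 and 0.14, and PI15, a peptidase inhibitor, at 0.71 and 1.19 against -0.11, -0.21 and -0.01. MIR9-2HG, the host transcript of miR-9-2, lay at 0.61 and 0.88 against -0.04, -0.16 and -0.21. LOC100510023 lay at 0.79 and 1.01 against 0.12, -0.01 and 0.12.

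In other genes of this group the inhibitor arrays lay below 0. ANKRD19P, an ankyrin repeat pseudogene, lay at 0.82 and 0.75 with G9a siRNA and at -0.04, -0.10 and -0.44 with UNC0638, and UNC0638 replicates 1 and 2, whose dye-swapped arrays belong to another array set, had it at -0.81 and -0.69 (fell, adjusted p = 0.0142 by limma). The noncoding transcript NCRNA00201 lay at 0.72 and 0.77 against -0.08, -0.39 and -0.59, the pseudogene ZNF833P at 0.61 and 1.01 against -0.11, -0.28 and -0.40, and LRATD2 at 0.57 and 0.95 against -0.11, -0.42 and -0.32. In these 3 and in ANKRD19P, replicate 3 was the inhibitor array closest to the knockdown. C2orf74-DT (0.24 and 0.17 against -0.56, -0.56 and -0.49) did not pass the test in either treatment. LIX1 (0.38 and 0.41 against -0.28, -0.47 and -0.49) passed as higher with G9a siRNA (adjusted p = 0.035, limma). LIX1 was above background in G9a siRNA RNA and in control siRNA RNA on 1 of 2 arrays each, and not in UNC0638 RNA. SHC4 was not well above background in G9a siRNA or UNC0638 RNA and is named only because the rule chose it. All 12 had an adjusted p of 0.23 on the 5 arrays and were called higher without UNC0638 replicate 3 (adjusted p from 0.0182 to 0.0409). These 12 too were ranked by p on the same arrays, so their calls are no separate support. The calls of RAB33B and SHC4 are also limited by background, and that of LIX1 rests on values near background.

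UNC0638 replicates 1 and 2 gave a list of inhibitor genes without using the values of these 5 arrays, apart from the spread shared in the fit of all 9 replicates. The list held 174 features up (0.609% of those tested) and 100 down (0.35%). The 174 had medians of 0.56, 0.57 and 0.68 in UNC0638 replicates 3, 4 and 5 and of 0.16 and 0.12 in G9a siRNA replicates 1 and 2. Of them 168, 169 and 172 were above 0 in the 3 inhibitor arrays in turn, replicate 3 included, and 129 and 114 on the knockdown arrays. For 142 of the 174 (81.6%) both knockdown values lay below all 3 inhibitor values, against 18% of all features, and for 0 they lay above. The 142 include FGG, IRAG1, GRP and CD33, which were above background on more than 1 array only in UNC0638 RNA. Their knockdown ratios were read near background, so they are no support here or among the calls without replicate 3 given below. How many of the 142 are of this kind was not counted. The 100 features down had medians of -0.37, -0.50 and -0.47 with UNC0638 and of -0.09 and -0.08 with G9a siRNA, and for 64 of them (64%) the knockdown values lay above all inhibitor values, against 16.9% of all features.

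Without replicate 3, 39 of the 174 were called lower with G9a siRNA and 0 higher, and 13 of the 100 were called higher and 0 lower. Over all features that test called 3.05% lower and 2.16% higher. G9a siRNA itself raised 29 of the 174 and lowered 2, and lowered 16 of the 100 and raised 7, where 9.22% of all features were called higher with G9a siRNA and 11.9% lower. Besides MAT1A, ALOX15B and GRP, the 5 most raised genes with 1 symbol per probe were HULC, a long noncoding RNA found in liver cancer, at 1.28, 1.46 and 2.26 with UNC0638 and 0.41 and 0.33 with G9a siRNA, and LYG2, a goose-type lysozyme, at 0.85, 1.39 and 1.99 against -0.06 and -0.43. Both were not well above background in G9a siRNA RNA. The most lowered feature was a probe with several symbols in the files, ZSCAN18 among them, at -1.45 in the mean of replicates 1 and 2. It did not follow the split: it lay at -1.01, -0.82 and -1.17 with UNC0638 and at -0.92 and -0.72 with G9a siRNA, where it also fell (adjusted p = 0.0189, limma against 0), and the groups overlapped. The 5 most lowered genes with 1 symbol per probe were ZIK1, ZNF502, ZNF112, LOC100506930 and ZNF875. ZNF112 lay at -0.28, -0.56 and -0.50 with UNC0638 and at 0.07 and 0.56 with G9a siRNA, and ZNF502 at -0.42, -0.69 and -0.44 against 0.11 and -0.05. ZIK1 lay at -0.92, -0.62 and -1.02 against -0.38 and -0.44. It was not well above background in UNC0638 RNA, where it was measured as 1.81-fold below DMSO RNA. For ZNF875 the groups overlapped, at -0.90, -0.42 and -1.22 against -0.53 and -0.75.

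**Figure D3:**
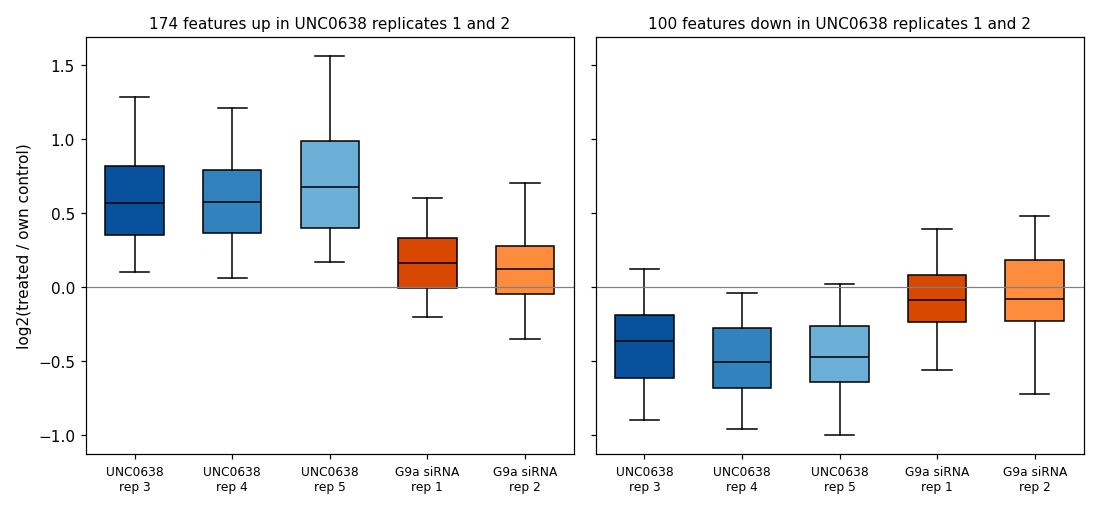
Log2 treated over control on each of the 5 arrays for the 174 features raised (left) and the 100 lowered (right) by UNC0638 in replicates 1 and 2; boxes span the quartiles, the line is the median and whiskers leave out the outermost 5% at each end. The medians of the raised features are 0.56 to 0.68 on the inhibitor arrays and 0.16 and 0.12 on the knockdown arrays.

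Families of genes within that list were picked after their values were seen, so they are described without a test. Of the 100 lowered features, 46 carried ZNF symbols, most of which encode DNA-binding zinc finger proteins. Their medians were -0.32, -0.52 and -0.45 in UNC0638 replicates 3, 4 and 5 and -0.05 and -0.01 with G9a siRNA, and 38 of the 46, which were chosen for falling with UNC0638, were below 0 on all 3 inhibitor arrays, against 19 on both knockdown arrays. Over all 494 ZNF symbols that tally was 179 and 179. Their medians were -0.04, -0.12 and -0.14 with UNC0638 and 0.02 and 0.08 with G9a siRNA, and the knockdown values lay above all inhibitor values for 33.8% of them, against 16.9% of all features. Of the 174 raised features, 7 were HLA class II genes, which present peptides to helper T cells and resemble each other in sequence, so that their probes may share signal. Their medians were 0.49, 0.62 and 0.60 with UNC0638 and 0.03 and -0.30 with G9a siRNA, all 7 with both knockdown values below all inhibitor values. Over all 17 HLA class II symbols tested, which include those 7, this held for 8, against 18% of all features, and the medians were 0.15, 0.29 and 0.27 with UNC0638 and 0.03 and -0.16 with G9a siRNA. Outside these families, NUPR1, a stress-induced nuclear protein, lay at 0.48, 0.58 and 0.94 against -0.09 and -0.25, and CSF1R, a macrophage growth factor receptor, at 1.03, 1.03 and 1.04 against 0.41 and 0.22.

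Against 0, G9a siRNA changed 6025 features (21.1%), 2633 up and 3392 down, and UNC0638 replicates 3 to 5 changed 114 (0.399%), 84 up (0.294%) and 30 down (0.105%). Of these, 55 (0.193% of all features) were called in both in the same direction, 39 up and 16 down, and 0 in opposite directions. The 55 made up 0.913% of the G9a siRNA list and 48.2% of the UNC0638 list. A dye effect common to the 5 arrays drops out of the difference but not of these means. With the dye effect estimated on the swapped arrays of the other set subtracted, the lists held 3642 and 594 features and shared 250. Without UNC0638 replicate 3 the inhibitor list fell to 6 features, 1 of them shared.

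Of the 6025 features that G9a siRNA changed, 91.7% had the same sign in the mean of UNC0638 replicates 3 to 5, against 70.8% of all features. Array by array the share was 95.7% in replicate 3, 72.5% in replicate 4 and 77.2% in replicate 5, and it was 53.1% in the mean of replicates 1 and 2, which lie in another array set and balance the dyes. The shares over all features were 74.2%, 60.4%, 58.5% and 51.8% in the same order, so the share in replicates 1 and 2 was near that of all features. Without replicate 3 the share was 80.7%, against 62% of all features. With the dye effect subtracted from both treatments it was 68.4%, beside 68.7% of all features. Treatment, dye orientation and array set cannot be told apart in the sharing on these 5 arrays.

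The genes called in both treatments included some that replicates 1 and 2 also showed. FGFBP1, a secreted binding protein of fibroblast growth factors, lay at 1.02, 0.82 and 0.85 with UNC0638 and 0.92 and 0.87 with G9a siRNA, with 0.98 and 1.11 in UNC0638 replicates 1 and 2. BEX5 lay at 1.00, 0.69 and 1.14 against 0.86 and 0.88 (0.65 and 0.86 in replicates 1 and 2), and GNAO1, the G protein alpha subunit abundant in brain, at 0.96, 1.07 and 0.65 against 0.95 and 0.72 (0.67 and 0.58). For these 3 the inhibitor and knockdown values overlapped. NAP1L2, a neuronal nucleosome assembly protein, lay at 0.97, 0.67 and 0.94 against 1.02 and 1.18, and C8orf48 at 0.97, 0.74 and 0.90 against 0.81 and 0.87, both lower in replicates 1 and 2 (0.27 and 0.36, 0.13 and 0.16).

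Among the genes down in both, HES5, a repressor that acts downstream of Notch, lay at -1.51, -1.20 and -0.96 with UNC0638 and at -1.27 and -1.0 with G9a siRNA, with -1.07 and -0.65 in replicates 1 and 2. PHLDA2, an imprinted growth regulator of placenta, lay at -1.79, -1.16 and -0.92 against -1.23 and -1.22, with -0.85 and -0.84 in replicates 1 and 2. BARX1, a homeobox gene, lay at -0.81, -0.57 and -0.80 against -0.75 and -0.87, and CTXN1 at -0.72, -0.66 and -0.65 against -0.68 and -0.89. EGFL7, a secreted factor of blood vessels whose probe has 68.3% G and C, lay at -0.90, -0.61 and -0.69 against -0.82 and -0.98. With the trend on GC content removed its G9a siRNA mean turned to 0.35 and its UNC0638 mean was -0.145. With the dye effect subtracted these means were -0.422 and -0.256, and neither passed (adjusted p = 0.0543 and 0.158, limma against 0). For these 10 genes the difference between treatments ranged from -0.17 (EGFL7) to 0.24 (NAP1L2) and none passed the test (adjusted p from 0.45 to 0.99, limma). The SEs of these differences were 0.12 to 0.26, so differences of that size are not resolved.

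Lists of pathway genes were described by counts and medians beside those of all features. None of the 26 lists had a member called on the 5 arrays, so the counts below are those without UNC0638 replicate 3, where 2.16% of all features were called higher and 3.05% lower and the median difference was -0.01. Of 45 nuclear genes of oxidative phosphorylation 12 were called lower with G9a siRNA and 0 higher, with a median of -0.44. COX4I1, a subunit of cytochrome c oxidase, lay at -1.44 and -1.91 with G9a siRNA and at -1.55, -0.29 and 0.21 with UNC0638. ATP5F1D, a subunit of ATP synthase, lay at -1.41 and -1.90 against -0.97, -0.26 and 0.26. The list medians were -0.47 and -0.42 on the knockdown arrays and -0.45, -0.11 and 0.17 in UNC0638 replicates 3, 4 and 5, so that replicate 3 lay with the knockdown and replicate 5 on the other side of 0.

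Of 32 histone genes 3 were called lower and 0 higher, with a median of -0.60. H3C2 lay at -2.26 and -2.98 with G9a siRNA and at -2.32, -0.41 and 1.30 with UNC0638, and H3C2 and PFKL, a subunit of phosphofructokinase (-2.87 and -3.91 against -2.54, -1.14 and -0.15), belonged to the extreme tail described above. Of 48 ribosomal protein genes 1 was called lower, with a median of -0.33. Their array medians were 0.06 and 0.05 with G9a siRNA and 0.06, 0.22 and 0.53 with UNC0638, and RPS20 lay at -0.74 and -0.58 against -0.74, -0.06 and 1.08. In these 3 lists the inhibitor arrays differed among themselves by more than their mean differed from the knockdown.

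**Figure D4:**
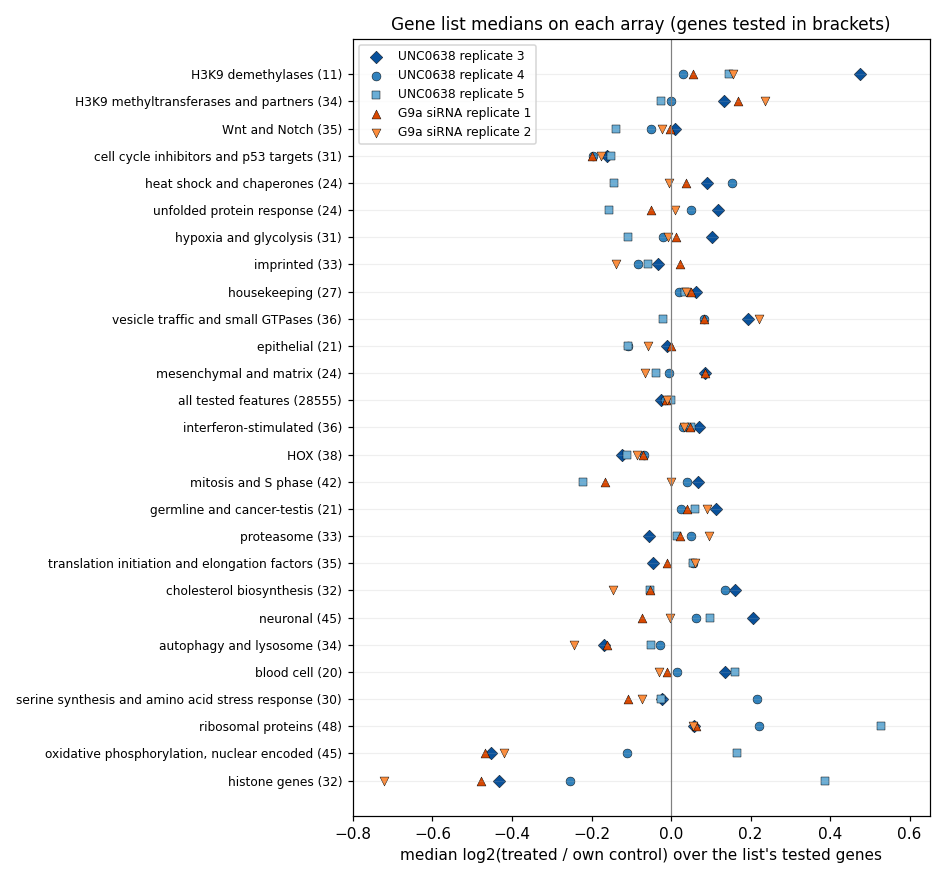
Median log2 treated over control over the tested genes of each list (horizontal axis) on each of the 5 arrays, lists ordered by the median difference without UNC0638 replicate 3; blue symbols are UNC0638, orange triangles G9a siRNA. Oxidative phosphorylation genes lie at -0.47 and -0.42 with G9a siRNA and at -0.45 in UNC0638 replicate 3, against -0.11 and 0.17 in replicates 4 and 5.

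In the neuronal and blood cell lists, replicate 3 lay on the inhibitor side of the knockdown arrays. Of 45 neuronal genes 23 had both knockdown values below all inhibitor values and 1 had them above, against 18% and 16.9% of all features, and 0 were called without replicate 3. Their medians were 0.21, 0.06 and 0.10 with UNC0638 and -0.07 and 0.00 with G9a siRNA. In UNC0638 replicates 1 and 2, 10 of the 45 rose, against 0.609% of all features. CELF4, a neuronal RNA-binding protein, lay at 0.21, 0.20 and 1.04 against -0.11 and -0.39. Of 20 blood cell genes 8 had the knockdown values below and 0 above, and 3 were called lower: CD33, a receptor of myeloid cells (0.83, 0.83 and 1.04 with UNC0638 against 0.12 and -0.03), CSF1R and HLA-DPA1. CD33 was not well above background in either RNA of the G9a siRNA arrays and was above it in DMSO RNA on 1 of 3, so that its call is no support for the list.

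In the list for serine synthesis and amino acid stress, 4 of 30 genes were called lower with G9a siRNA and 0 higher, with a median of -0.21. They were CHAC1, which degrades glutathione (-0.54 and -0.58 against -0.20, 0.47 and 0.66), PCK2, the mitochondrial phosphoenolpyruvate carboxykinase (-0.67 and -1.12 against -0.30, 0.49 and 0.02), DDIT4, an inhibitor of mTOR signalling, and NUPR1. Of 32 cholesterol synthesis genes 2 were called higher and 2 lower. LSS, lanosterol synthase, lay at -0.99 and -1.26 against -0.30, 0.21 and -0.08, and MSMO1, a sterol oxidase of the same route, lay on the other side at 1.47 and 1.96 against 1.11, 0.59 and -0.23. Of 34 autophagy and lysosome genes 4 were called lower and 0 higher, among them MCOLN1, a lysosomal calcium channel (-1.18 and -1.42 against -0.84, -0.19 and -0.23).

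Of 34 H3K9 methyltransferases and their partners 2 were called higher and 2 lower, with a median of 0.20. The lower ones were EHMT2 and SUV39H1, a trimethylating H3K9 enzyme (-0.72 and -1.02 with G9a siRNA against -0.36, -0.00 and -0.12 with UNC0638). The higher ones were DNMT3B, a DNA methyltransferase (0.31 and 0.46 against 0.22, -0.38 and -0.56), and the deacetylase HDAC2 (0.78 and 1.10 against 0.74, -0.04 and 0.07). Against 0, G9a siRNA raised 8 members and lowered 6, and UNC0638 replicates 3 to 5 changed 0. Over all features G9a siRNA raised 9.22% and lowered 11.9%, and UNC0638 replicates 3 to 5 changed only 0.399%. Of 11 H3K9 demethylases 0 were called, and KDM4D had the widest difference (-0.36 and -0.64 against 0.01, 0.08 and 0.45, not called). Of 24 mesenchymal and matrix genes 4 were called higher and 1 lower: SNAI2, ZEB1, ZEB2 and CDH2 against TWIST1. SNAI2, a repressor of epithelial genes, lay at 1.14 and 1.63 with G9a siRNA and at 1.00, 0.42 and 0.40 with UNC0638. The epithelial genes had 0 of 21 called, and EPCAM lay at 0.90 and 1.10 against 0.60, 0.24 and 0.45.

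The other lists had shares of calls between 0 of 36 interferon-stimulated genes and 5 of 35 translation factors. BST2, an antiviral membrane protein, lay at 0.61 and 0.33 with G9a siRNA and at -0.10, -0.15 and -0.06 with UNC0638. TDRD6, a germ cell gene, lay at 0.64 and 0.70 against 0.11, -0.29 and -0.02 and was the 1 called of 21 germline genes. UBE3A, an imprinted ubiquitin ligase, lay at 0.90 and 1.63 against 0.46, 0.33 and 0.30, and of 33 imprinted genes only KCNQ1OT1 was called. Among translation factors, EIF5A lay at -1.40 and -1.82 against -0.87, -0.08 and -0.29, and 2 of 35 were called higher and 3 lower. HSPH1, a chaperone, lay at 0.54 and 0.66 against 0.48, -0.14 and -0.36, COPE, a coat protein of Golgi vesicles, at -1.07 and -1.56 against -0.50, -0.35 and -0.13, and FZD2, a Wnt receptor, at -1.08 and -1.66 against -0.46, -0.19 and -0.08.

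Base content of the probes moved with these ratios. Over the 13803 features with a probe sequence, 48.3% of those tested, the ratio correlated with GC content at -0.491 and -0.508 on the G9a siRNA arrays, at -0.435, -0.224 and -0.227 in UNC0638 replicates 3, 4 and 5, and at 0.106 and -0.0958 in replicates 1 and 2. Probes of 35% to 40% G and C had medians of 0.18 and 0.24 with G9a siRNA, 0.18 in UNC0638 replicate 3, and 0.06 and 0.09 in replicates 4 and 5. Probes of 55% or more had -0.35 and -0.47 with G9a siRNA, -0.24 in replicate 3, and -0.07 and -0.12 in replicates 4 and 5. At 55% or more, 202 features were called lower without replicate 3 and 0 higher, and at 35% to 40%, 46 were called lower and 195 higher. With the trend on GC content removed from each array, the calls without replicate 3 among these features went from 1203 to 296, and EHMT2, MAT1A, ALOX15B, GRP, FGG, NAPA, ERI3 and LYG2 were among those still called (adjusted p from 0.00915 to 0.0458, limma). Of the 9 lowest named genes with a probe sequence 7 were still called, and SMTN (adjusted p = 0.0532) and SHKBP1 (0.081) were not. The 7 include GRP and FGG, whose calls are no support, since both were above background on more than 1 array only in UNC0638 RNA. The lowest and highest named genes were chosen by p on these same arrays, so their calls are no separate support. Of the 6 highest with a sequence LRATD2 alone was still called, and RAB33B, LIX1, MIR9-2HG, RSL24D1 and SHC4 were not (adjusted p from 0.052 to 0.0599), with differences of 0.66 to 0.79 after removal against 0.80 to 0.94 before. Among list members, CD33, COPE, SNAI2, MCOLN1, MSMO1, PCK2, HSPH1, FZD2 and PSME1 also lost their call (adjusted p from 0.0505 to 0.0679).

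**Figure D5:**
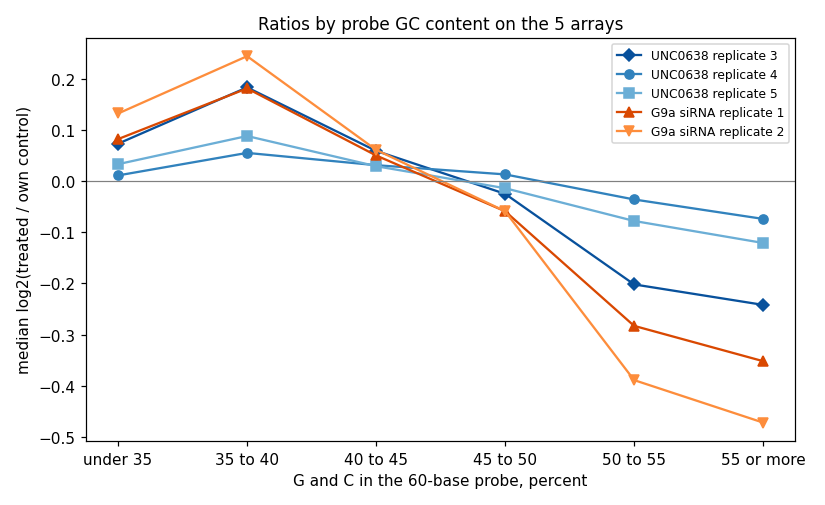
Median log2 treated over control (vertical axis) of features grouped by the GC content of their probe (horizontal axis), 1 line per array. The lines of the G9a siRNA arrays run from 0.18 and 0.24 at 35% to 40% down to -0.35 and -0.47 at 55% or more, with UNC0638 replicate 3 next to them and replicates 4 and 5 flatter.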

How the data were processed

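The deposited intensity of each spot and of its background is the scanner's brightness per channel before correction, per the file headers. The log2 ratio in the same files was normalized by the authors, per the file headers. The deposited series table holds the authors' log10 ratios, whose centring and filter are not given in the sources used here. Its columns ran as treated over control on these 5 arrays (r from 0.925 to 0.971 with the log2 ratios, slopes 0.301 to 0.31), and had medians of 0.00178 and -0.00027 (G9a siRNA replicates 1 and 2) and of -0.00359, -0.00609 and -0.00882 (the 3 UNC0638 arrays).

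Intensities were background-corrected with normexp (offset 50) and normalized by loess within arrays in limma 3.58.1 (R 4.3.3), with weight 0 for 4259 control spots. Arrays were turned to treated over control from the dye labels. WIZ RNA was low on all WIZ siRNA arrays in both dye orientations. A probe counted as above background past the local median by 2.6 SDs and was kept if so on 50% of the arrays of any RNA group. The brightest of 34619 kept probes per gene gave 28555 features, 18909 with a symbol. Symbols came from RefSeq (GRCh38.p14) by accession for 25664 of 42405 probes and by symbol for 1908, from the file for 1523, and 13310 had none. Coordinates are the files'.

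The 5 arrays entered 1 limma fit (lmFit, eBayes) with a mean per treatment, giving 3 residual and 3.23 prior degrees of freedom, with Benjamini-Hochberg adjustment over all features and a threshold of 0.05. With 2 against 3 arrays, their number limits the precision. The test was checked on simulated data. UNC0638 replicates 1 and 2, dye swaps averaged, entered a fit of all 9 replicates with a mean of their own. An "at least" fold sets the brighter RNA against the lowest signal well above background, after Aquantile scaling. Where the dimmer RNA's own signal was higher than that lowest signal, it was used in its place. This was so for RAB33B and ZIK1, whose fold is the measured ratio and is given without "at least".

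Named genes were EHMT2, EHMT1 and WIZ; the 12 highest and 12 lowest differences without overlap that kept their sign without UNC0638 replicate 3, ranked by p since none was called; the 5 largest up and down in both treatments; per list the largest difference; and the 5 largest up and down in replicates 1 and 2, all from probes with 1 symbol. Other members named in lists, and the ZNF and HLA families, were chosen after their values were seen. The members, lists and tests were chosen with earlier results of these data known. One marker is not reported here.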

Additional observations from a re-analysis of the deposited data

Results flagged for a closer look

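Of 68 named genes, 3 had 1 UNC0638 replicate far from the other 4 of that treatment (Dixon's test over the 5 replicates, which chance alone meets in about 1 of 20 groups). KDM4D lay at 0.45 in UNC0638 replicate 5, with the other replicates between 0.01 and 0.14. BST2 lay at 0.26 in replicate 1, with the others between -0.15 and -0.05. PSME1, a proteasome activator subunit, lay at -0.73 in replicate 3, with the others between -0.01 and 0.20, and at -0.70 and -1.14 on the G9a siRNA arrays.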

How the results depend on the processing

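The difference on the 5 arrays gave 0 calls under the authors' log2 ratio, the authors' log10 table, scaling between arrays, no filter on dim probes, a stricter filter, and the GC trend removed, 1 with array weights, 727 with all 9 replicates in 1 fit, and 5318 with UNC0638 replicates 1 and 2 in place of 3 to 5, which lie in another array set. Leaving out 1 array gave 0 to 1487. Alternatives to the comparison without UNC0638 replicate 3 were chosen after the data were seen: the 1487 calls became 0 with the authors' log2 ratio, 133 with the log10 table, 0 with scaling, 296 with the GC trend removed, 6385 with all 9 replicates (1485 of the 1487 among them), and 0 to 4892 with another array left out. The 6025 calls of G9a siRNA against 0 became 0 with the authors' log2 ratio, 2932 with scaling, 3642 with the dye effect subtracted, 9951 with all 9, 9442 with array weights and 0 to 8219 with 1 array left out. The 114 of UNC0638 became, with the authors' log2 ratio and the stricter filter, 0 and 0, 73 with the log10 table, 1014 with scaling, 203 with no filter, 220 with the GC trend removed, 594 with the dye effect subtracted, 3133 with all 9, 1154 with array weights and 0 to 480 with 1 array left out. The 55 shared calls became 0, 499, 105, 0, 118, 250, 2064 and 677 with the log2 ratio, scaling, no filter, the stricter filter, the GC trend removed, the dye effect subtracted, all 9 and array weights, and 0 to 347 with 1 array left out. The 274 features of replicates 1 and 2 became 50 with the log2 ratio, 84 with the log10 table, 1626 with scaling, 112 with the stricter filter and 27 to 416 with 1 replicate left out. Causes were not tested.

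Of 761 differences of named genes under alternatives, 679 kept direction and side of the threshold, 80 passed it and 2 turned sign: WIZ to -0.017 without UNC0638 replicate 5 (-0.017 to 0.424 with 1 array left out) and ZNF875 to -0.014 with array weights. Against 0, 67 of 147 alternatives for named genes with UNC0638 and 32 of 147 with G9a siRNA kept direction but no longer passed, and 71 of 392 list medians moved by more than the spread between arrays. Fits without a G9a siRNA array take their spread from UNC0638 alone. The G9a siRNA mean of EGFL7 turned to 0.35 with the GC trend removed. No paired analysis was possible because the G9a siRNA and UNC0638 arrays compared share no replicate number. The slide and scan date block was not run, since neither is given in the sources used here. Ratios of genes near background, such as MAT1A with G9a siRNA, are limited by signal over background.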
